A study of Mus musculus with 4 samples.

Results

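The cell type that the study named gdT_Naive, read here as naive gamma delta T cells, was described by the genes that the authors' marker table listed for it. All rows of the cell type table that carried this name were taken, which gave 149 genes of the 1679 genes listed for any of 21 cell types. These 149 genes were 7.45% of the 2000 features that entered the comparison of gdT_Naive with all other cells. Each listed gene had a higher average in gdT_Naive cells than in the other cells, because the table held no gene with a lower one. The genes were chosen by that comparison, so their values are a description of the cell type and not a test of it.

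The study took liver and lung cells of BALB/c mice that were wild type and 8 weeks old. Mice received PBS, the control, or recombinant IL-33 (rIL-33, 0.5 µg), a cytokine that activates group 2 innate lymphoid cells (ILC2s), by injection into the peritoneal cavity on each of 5 days. The 4 groups, PBS liver, rIL-33 liver, PBS lung and rIL-33 lung, had 1 library each, and tissue of 2 to 6 mice was pooled in a group, so spread between mice cannot be seen. Cells were sorted to enrich ILC2s: they had to carry CD127, Thy1 and ST2, the IL-33 receptor, and to lack lineage proteins that included CD3e and the T cell receptor beta chain. The tables joined all 4 libraries and gave no value for any one of them, so rIL-33 was not compared with PBS, nor liver with lung. There was no replicate behind any value, no test was run and depth was unknown.

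Gamma delta T cells carry an antigen receptor made of a gamma and a delta chain in place of the alpha and beta chains of most T cells, and both kinds of receptor signal through the CD3 proteins. Many gamma delta T cells leave the thymus already committed to an effector programme, whereas naive T cells of either kind recirculate between blood and lymphoid organs. Recirculation depends on the chemokine receptor *Ccr7* and on the lipid receptor *S1pr1*, which the transcription factor *Klf2* promotes. The transcription factors *Tcf7* and *Lef1* are high in naive T cells.

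The measure used throughout is how many of the cells, in percent, had a value above 0 for a gene (called its share), inside gdT_Naive and in all other sorted cells. A higher average can go with a lower share, and it did for most of these genes. The shares of the cell type table were not the same kind of value as those of the second table, which compared 10 subclusters of the ILC2s with each other. Of the 149 genes, 92 were in both tables, and for all 92 the share over all sorted cells was above the share over all ILC2s (medians 73.8% and 35.3%). *Trdc* had a value above 0 in 71.0% of all sorted cells but in 7.72% of ILC2s. ILC2 was the largest type, at 43.2% of cells, and if its cells had the ILC2 table's share of *Trdc*, the share over all sorted cells could not exceed 60.1%. The share of 33 genes lay above such a limit. The cell type table rested on 2000 features and the ILC2 table on about 14354. Whether the former shares were taken from counts or from values corrected across libraries was not stated, and the cause of the gap was not tested. No share of the cell type table, inside gdT_Naive or outside it, is therefore read here as the share of cells that express a gene.

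The fractions of cells solved from the shares put gdT_Naive at 6.08% of the sorted cells (standard error of the fit 0.0188 points). The type was thus smaller than gdT_TypeI, at 11.7%, and larger than the other T cell types, CD4 at 3.16%, CD8_Naive at 2.71%, Treg at 2.06%, gdT_TypeII at 1.58%, gdT_TypeIII_CD163l1 at 1.38%, gdT_TypeIII_ITGAE at 1.28% and CD8_Effector at 0.660%.

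The label was set against markers of each lineage. The authors named the types from these same marker lists, so this shows which markers the list holds and is no independent check. Of 9 markers of naive T cells, 7 were listed for gdT_Naive, and all 7 had a higher share there than in the other sorted cells. Of 7 markers of gamma delta T cells, 6 were listed with a higher share, but 3 of these are CD3 genes that alpha beta T cells share, and of the receptor genes *Trdc* was higher by 27.1 points, *Tcrg-C4* by 4.0 and *Tcrg-C2* by 0.4. *Il7r*, which encodes the CD127 of the sort, was listed for no type, and *Dapl1* and the gamma chain gene *Tcrg-C1* were listed for other types only. Of 6 markers of alpha beta T cells, *Trbc1*, *Trbc2* and *Cd8b1* were listed and *Trac*, *Cd4* and *Cd8a* were not. *Trbc2* differed from the other sorted cells by 6.5 points, more than *Tcrg-C4* or *Tcrg-C2*, whereas *Trbc1* differed by -8.4 and *Cd8b1* by -28.8. None of the markers *Il1rl1* (the gene of ST2), *Gata3*, *Foxp3*, *Cd79a*, *Igkc* and *Lyz2* was listed. *Jun*, the marker that came with the name, did not set the type apart by its share, as given below. *Cd3e* had a share of 97.0% in gdT_Naive although the sort excluded CD3e at the surface, and *Thy1*, selected by the sort, had 78.1% in gdT_Naive and 86.9% in the other sorted cells. The tables do not show how these cells passed the sort.

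Promoters of 4 genes the description turns on are printed here from RefSeq (GRCm38.p6), as windows of 300 bases around a transcript start in RefSeq, on the strand of the gene. *Lef1* and *Klf2* belong to the naive programme, *Cd3e* to the receptor complex, and *Jun* is the marker of the label. *Lef1* is at chr3:131110047-131110346 on the plus strand, *Klf2* at chr8:72318812-72319111 on the plus strand, *Cd3e* at chr9:45009562-45009861 on the minus strand and *Jun* at chr4:95052173-95052472 on the minus strand. For *Lef1*, which has 4 windows in the table, the one farthest upstream is given, and it ends before the start that GENCODE gives for the gene (131110471). Capitals mark the letters CACCC or their reverse complement, a core bound by KLF factors.
Lef1: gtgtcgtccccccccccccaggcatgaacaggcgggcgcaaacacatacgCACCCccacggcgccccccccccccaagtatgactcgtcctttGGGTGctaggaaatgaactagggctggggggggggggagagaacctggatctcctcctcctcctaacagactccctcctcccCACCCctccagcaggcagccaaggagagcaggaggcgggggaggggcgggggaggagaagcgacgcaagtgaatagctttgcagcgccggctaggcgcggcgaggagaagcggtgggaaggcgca
Klf2: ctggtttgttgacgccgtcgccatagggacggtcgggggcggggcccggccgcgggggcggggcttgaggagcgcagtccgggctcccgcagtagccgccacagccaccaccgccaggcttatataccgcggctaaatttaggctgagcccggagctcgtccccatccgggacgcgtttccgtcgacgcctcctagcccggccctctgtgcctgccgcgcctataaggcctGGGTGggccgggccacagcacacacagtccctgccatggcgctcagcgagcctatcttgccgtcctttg
Cd3e: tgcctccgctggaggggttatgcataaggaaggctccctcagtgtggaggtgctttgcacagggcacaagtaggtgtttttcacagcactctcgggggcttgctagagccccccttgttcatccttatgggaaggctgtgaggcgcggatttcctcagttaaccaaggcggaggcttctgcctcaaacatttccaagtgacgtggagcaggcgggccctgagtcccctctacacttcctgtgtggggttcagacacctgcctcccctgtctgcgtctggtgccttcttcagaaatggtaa
Jun: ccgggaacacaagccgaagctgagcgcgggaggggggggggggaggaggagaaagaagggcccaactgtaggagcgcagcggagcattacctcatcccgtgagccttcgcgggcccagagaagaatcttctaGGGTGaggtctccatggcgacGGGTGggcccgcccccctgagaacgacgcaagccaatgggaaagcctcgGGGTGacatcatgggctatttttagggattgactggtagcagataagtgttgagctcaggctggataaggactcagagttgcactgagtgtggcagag

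The *Lef1* window held 3 such matches, the *Jun* window 3, the *Klf2* window 1 and the *Cd3e* window none. Windows were found for 108 of the 149 genes, and *Trdc*, *Smc4*, *S1pr1* and *Ccr7* were not among them. Over both strands, CACCC was in 70.7% of the 140 windows of listed genes and in 57.5% of all 32851 windows. The letters CTTTGA, the core bound by TCF and LEF factors, were in 12.9% of the windows of listed genes and 16.0% of all windows. The AP-1 letters TGANTCA were in 6.43% and 7.81%. None of the 4 windows shown held CTTTGA or TGANTCA. Only these exact letters were searched, so sites of another spelling or spacing, such as TGACATCA in the *Jun* window, were not counted. These matches are letters in a window and say nothing of binding, and some genes gave several windows.

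Of the 149 genes, 37 had a higher share in gdT_Naive than in the other sorted cells, 111 a lower one, and *Trgv2* the same in both. The median share was 59.3% in gdT_Naive and 68.3% in the other sorted cells, and the median difference was -7.20 percentage points. The differences ran from 27.1 points above the other sorted cells to 34.6 points below them (-34.6). A share higher by at least 10 points was found for 14 genes, whereas 56 genes were lower by at least 10 points and 23 by at least 20 points. Over the whole cell type table, 16.3% of listings had a lower share inside the type, against 74.5% for gdT_Naive. CD4 had 76.3%, CD8_Effector 60.6%, CD8_Naive 57.1% and gdT_TypeI 27.6%.

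**Figure D1:**
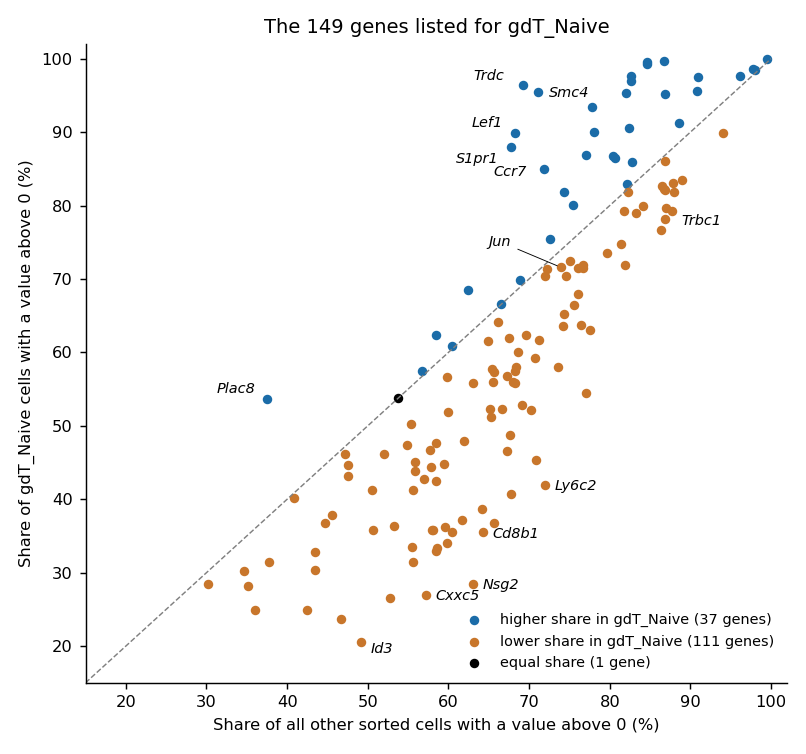
Each point is 1 of the 149 genes listed for gdT_Naive, with the share of all other sorted cells that had a value above 0 (x axis, %) and the share of gdT_Naive cells (y axis, %). The dashed line marks equal shares: 37 genes lie above it, with *Trdc* and *Smc4* farthest from it, and 111 lie below it, with *Nsg2* farthest from it.

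Among the receptor genes of the gamma delta lineage, *Trdc* alone stood far from the other sorted cells. *Trdc*, the constant region of the delta chain (GRCm38, chr14:54142851-54148868), had the largest difference of all 149 genes, with a share of 96.4% in gdT_Naive and 69.3% in the other sorted cells. It was listed for 3 more types, gdT_TypeIII_CD163l1 at 99.3%, gdT_TypeIII_ITGAE at 96.7% and gdT_TypeI at 77.0%, and for no alpha beta type. The gamma chain constant regions stood much closer to the other sorted cells. *Tcrg-C4* had a value above 0 in 62.4% of gdT_Naive cells and 58.4% of the other cells, and *Tcrg-C2* in 60.8% and 60.4%. *Trgv2*, a variable segment, was at 53.8% in both. *Tcrg-C4* was listed for gdT_TypeI (64.4%) and gdT_Naive only. The gamma constant regions are related genes, and how reads were assigned among them was not tested. Of the 15 genes in the gamma delta list, 8 were listed for some type and 4 for gdT_Naive, beside 7.45% of all features. gdT_TypeI also listed 4. *Tcrg-C1*, *Trdv4*, *Sox13* and *Zbtb16* were listed for other types only. The last of these, which encodes PLZF, is a transcription factor of innate-like T cells.

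The CD3 genes were near saturation. *Cd3g* had a value above 0 in 99.6% of gdT_Naive cells and 84.6% of the other sorted cells, *Cd3d* in 97.6% and 82.6%, and *Cd3e* in 97.0% and 82.6%. These genes do not separate gdT_Naive from other T cells, since each was listed for 9 types, and *Cd3e* reached 96.0% or more in all types named for alpha beta T cells.

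Genes of the alpha beta receptor were listed as well. *Trbc2* had a value above 0 in 97.5% of gdT_Naive cells and 91.0% of the other sorted cells, within the span from 96.6% in CD8_Effector to 99.3% in CD8_Naive. *Trbc1* had a share of 79.3%, below the 87.7% of the other sorted cells, and equal to the 79.3% of CD8_Effector. It was the only member whose share in gdT_Naive was not exceeded in any other type that listed the gene. The 2 genes are close copies, and how reads were assigned between them was not tested. *Cd8b1*, a chain of the CD8 co-receptor, had a share of 98.5% in CD8_Naive, 90.6% in CD8_Effector and 35.5% in gdT_Naive, which was below the 64.3% of all sorted cells outside gdT_Naive.

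The list of naive and recirculating T cells gave more members than any other list. Of its 25 genes, 19 were listed for some type and 17 for gdT_Naive, beside 7.45% of all features. CD8_Naive listed 17 of the 25, CD4 13, gdT_TypeI 12 and Treg 8. The share was higher in gdT_Naive than in the other sorted cells for 12 of the 17, beside 37 of all 149 genes. *Lef1* had a share of 89.9% against 68.3% in the other sorted cells, *S1pr1* 88.0% against 67.7%, and *Tcf7* 93.4% against 77.8%. *Klf2* was at 99.3% against 84.6%. *Ccr7* was at 85.0% against 71.8%. The chromatin organizer *Satb1* was at 90.5% against 82.4%, and *Cd27*, a co-stimulatory receptor, at 81.8% against 74.3%. *Ms4a4b* (99.7% against 86.7%) and *Ms4a6b* (95.3% against 82.0%) were also higher, whereas *Igfbp4* (57.4% against 56.7%) and *Actn1* (66.6% against 66.5%) differed by less than 1 point.

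The other 5 genes of that list had a lower share. *Nsg2* had a value above 0 in 28.5% of gdT_Naive cells and 63.1% of the other sorted cells, the lowest difference of the 149 genes. *Ly6c2*, which encodes a Ly6C protein, was at 42.0% and 72.0%, and was also listed for gdT_TypeI (85.7%) and CD8_Naive (81.9%). Ly6C was among the proteins the sort excluded for all of these cells, and any part of the sort in the shares was not tested. *Id3*, an inhibitor of E proteins in T cell development, was at 20.6% and 49.2%, and the gut-homing receptor *Ccr9* at 33.5% and 55.5%. The co-stimulatory receptor *Cd28* was at 81.9% and 82.2%.

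**Figure D2:**
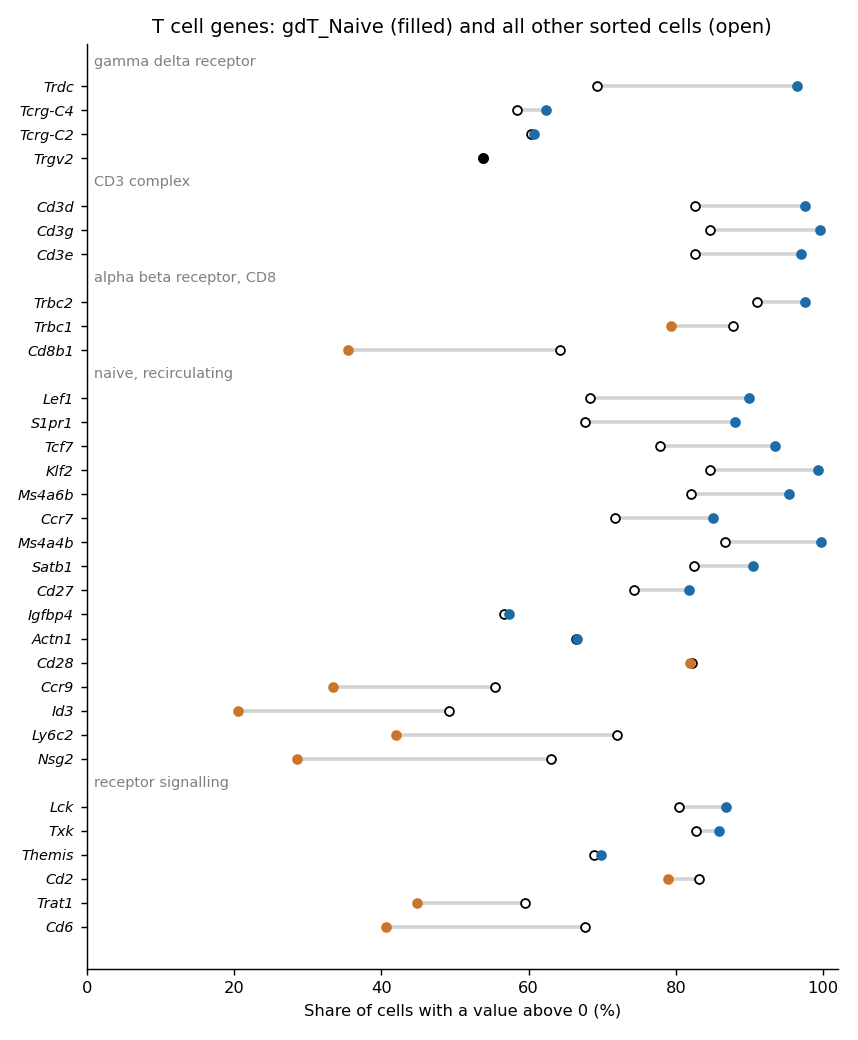
Share of cells above 0 (x axis, %) for T cell genes among those listed for gdT_Naive, in gdT_Naive (filled, blue where higher, orange where lower, black where equal) and in all other sorted cells (open). The 3 CD3 genes and *Trdc* lie above 96% in gdT_Naive, and *Cd8b1*, *Ccr9*, *Id3*, *Ly6c2* and *Nsg2* lie to the left of the other sorted cells.

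For none of the 17 naive genes was the share in gdT_Naive the highest among the types that listed the gene. *Lef1* had the order CD8_Naive (95.9%), gdT_Naive (89.9%), gdT_TypeI (84.2%), CD4 (74.4%) and CD8_Effector (60.6%). *Ccr7* was at 95.9% in CD8_Naive, 93.5% in the type named Plasma cell, 85.0% in gdT_Naive and 80.9% in gdT_TypeII. It was at 70.6% in CD4 and 63.6% in Treg, and was not listed for gdT_TypeI. *S1pr1* had the opposite order for the naive pair, with 88.0% in gdT_Naive and 83.2% in CD8_Naive, and CD4 at 84.7%. Endothelium cell, a type that uses the same receptor, had 98.4%. No spread over samples can be set beside these orders.

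**Figure D3:**
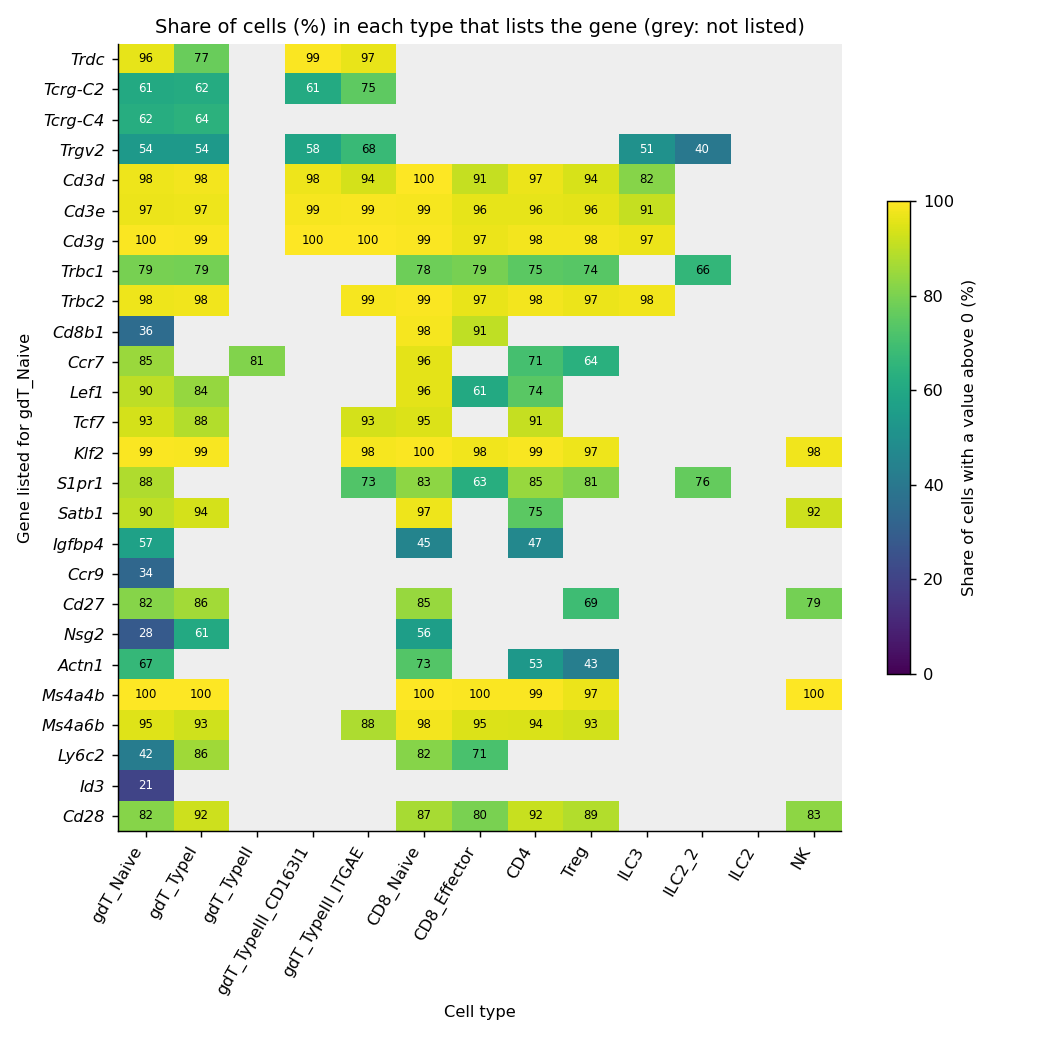
Share of cells above 0 (colour and printed whole number, %) for receptor, CD3, alpha beta and naive genes among those listed for gdT_Naive (rows) in 13 cell types (columns). Grey cells are genes not listed for that type. *Trdc* is coloured in 4 gamma delta types and in no alpha beta type, and *Cd8b1* is at 35.5% in gdT_Naive against 98.5% in CD8_Naive.

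Genes that act below the T cell receptor were divided. Of 22 such genes, 8 were listed for some type and 6 for gdT_Naive, beside 7.45% of all features. CD8_Naive listed 7 of them, CD4 6, Treg 6 and gdT_TypeI 5. A lower share was found for 74.5% of the 149 genes. The kinase genes *Lck* (86.8% against 80.4% in the other sorted cells) and *Txk* (85.9% against 82.8%) and *Themis* (69.8% against 68.9%) had a higher share. The adhesion receptor *Cd2* (79.0% against 83.2%), the adaptor *Trat1* (44.8% against 59.5%) and the surface receptor *Cd6* (40.7% against 67.7%) had a lower one, and gdT_Naive was the lowest of 9 types listing *Cd2* and of 7 types listing *Cd6*.

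*Jun*, a subunit of the AP-1 transcription factor, was the 1 gene of 9 in the AP-1 list, and its share was 71.6% in gdT_Naive and 73.9% in the other sorted cells. Among the 6 types that listed *Jun*, gdT_Naive was the lowest, below Basophil (97.6%), Endothelium cell (97.2%), MMP_LMPP (93.5%), ILC1_ILC3 (92.9%) and gdT_TypeIII_CD163l1 (86.1%). *Fos*, *Fosb*, *Fosl1*, *Fosl2* and *Atf3* were listed for other types only. Of 37 further immediate early and dissociation stress genes, 6 were listed, beside 7.45% of all features, and all had a lower share, as did 74.5% of the 149 genes: *Ier2* (89.9% against 94.0%), *Ier5* (76.6% against 86.4%), *Dusp2* (72.5% against 75.1%), *Dusp10* (65.2% against 74.3%), *Ppp1r15a* (82.7% against 86.5%) and *Socs3* (62.4% against 69.6%). Genes of this kind respond within minutes to stimulation and also to tissue digestion, and the part of digestion was not tested.

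Genes of effector programmes follow. None of 20 genes of the type 2 and ILC2 list, such as *Il13*, *Il5* and *Gata3*, was listed for gdT_Naive, beside 7.45% of all features. Nor was any of 15 genes of the type 3 list, such as *Il17a* and *Il17f*. This was not particular to gdT_Naive: gdT_TypeI and CD8_Naive also listed none of either list, while CD4 listed 1 of each and Treg 3 and 2. A missing listing can mean a lower, equal or rare transcript, and a gene listed for no type may not have been among the 2000 features compared, so the list sizes given here include genes that may not have been tested. Of 20 type 1 effector genes, 2 were listed, beside 7.45% of all features. The granule gene *Nkg7* was at 90.0% against 78.1%, yet gdT_Naive was the lowest of the 6 types that listed it, below CD8_Naive at 96.4%. The protease gene *Ctsw* was at 67.9% against 76.0%.

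Smaller groups gave single genes. Of 14 proliferation genes, 2 were listed, beside 7.45% of all features. *Smc4*, a condensin subunit, was at 95.5% against 71.1%, close to the 95.9% of the type named Prolifelation cell. CD8_Naive (89.7%) and Treg (84.9%) also listed *Smc4*. The tubulin gene *Tubb5* was at 82.9% against 82.1%. *Mki67* and *Top2a* were listed for other types only. Of the interferon response list of 19, 6 were listed (beside 7.45% of all features), and all 6 had a lower share, as did 74.5% of the 149 genes, among them *Ifi27l2a* (42.5% against 58.5%), *Igtp* (35.8% against 50.6%), *Gbp2* (32.9% against 58.4%), *Ly6a* (28.4% against 30.2%) and *Iigp1* (24.9% against 36.0%). *Gimap4*, a GTPase gene of lymphocytes and the 1 listed member of a family of 8, was at 86.5% against 80.7%. Markers of other cells, beside 7.45% of all features, were 1 of 12 B cell genes (*Ighm*, 57.3% against 65.7%), 1 of 11 genes of endothelium, hepatocytes and lung epithelium (*Pecam1*, 46.2% against 47.2%), 1 of 7 regulatory T cell genes (*Ikzf2*, 45.3% against 70.9%), and none of 14 myeloid or 9 NK and ILC1 genes.

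Beyond the lists, *Plac8* had a share of 53.7% against 37.5%, the fifth largest difference, although it was the lowest of the 6 types listing it. Among the 10 genes with the most negative differences were *Cxxc5* (27.0% against 57.2%), the interleukin-6 receptor gene *Il6ra* (36.7% against 65.6%), *Treml2* (26.5% against 52.7%) and *Tnfsf8*, the gene of CD30 ligand (34.1% against 59.8%).

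No gene was listed for gdT_Naive alone. The genes were listed for 2 to 10 types each, with a median of 6. *Tcrg-C4*, *Pdcd1*, *Nop10* and *Treml2* were listed for 1 other type. *Pdcd1*, the gene of the inhibitory receptor PD-1, was shared with gdT_TypeIII_CD163l1, at 31.4% in gdT_Naive and 69.0% there. For 67 genes gdT_Naive had the lowest share among the types that listed the gene.

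By number of genes, the list of gdT_Naive overlapped most with that of CD8_Naive, which was also longer, and as a share of the other type's own list most with that of CD4. CD8_Naive and gdT_Naive shared 108 genes, which were 72.5% of the gdT_Naive list and 54.5% of the 198 genes of CD8_Naive. CD4 shared 75 (50.3% and 57.3%), Treg 67 (45.0% and 44.7%), and gdT_TypeI 66 (44.3% and 45.5%). CD8_Effector shared 37 (24.8% and 39.4%), gdT_TypeIII_ITGAE 31 (20.8% and 15.7%) and gdT_TypeIII_CD163l1 14 (9.40% and 7.33%). The 1 gene shared with gdT_TypeII was *Ccr7*, and ILC2 shared none. Of all 2000 features, CD8_Naive listed 9.9%, CD4 6.55%, Treg 7.5%, gdT_TypeI 7.25%, CD8_Effector 4.7%, gdT_TypeIII_ITGAE 9.85%, gdT_TypeIII_CD163l1 9.55%, gdT_TypeII 1.4% and ILC2 6.8%. With only genes of a higher share in both types, the counts were 30 for CD8_Naive, 24 for gdT_TypeI and 18 for CD4, so CD4 and gdT_TypeI changed places. All types were compared with cells that largely overlap, so these overlaps describe the table and were not tested.

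**Figure D4:**
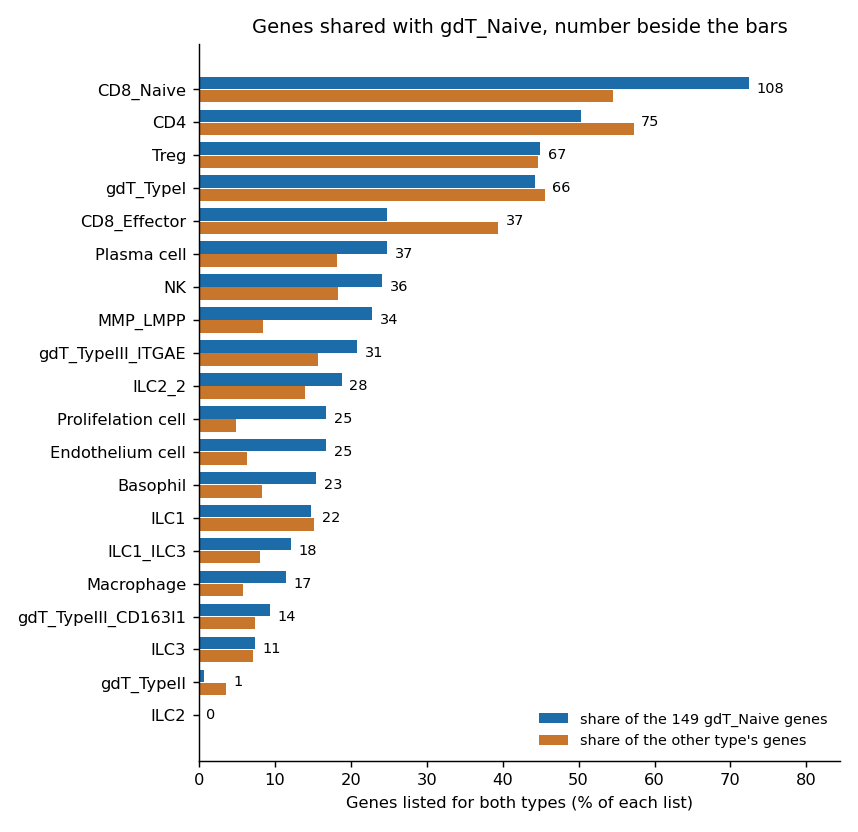
Genes listed both for gdT_Naive and for each of the 20 other cell types (y axis), as a percentage of the 149 gdT_Naive genes (blue bars) and of the other type's own list (orange bars), with the number of shared genes printed. CD8_Naive has the longest blue bar with 108 genes, and ILC2 has none.

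Shares of the shared genes were mostly lower in gdT_Naive than in CD8_Naive. Of the 108 genes, 19 had a higher share in gdT_Naive, and the median difference was -6.05 points. Against gdT_TypeI, 10 of 66 were higher and the median difference was -8.70 points, whereas against CD4 52 of 75 were higher and the median difference was 1.70 points. Genes listed for both CD8_Naive and gdT_TypeI numbered 53, for CD8_Naive and not gdT_TypeI 55, and for neither 28. The 13 genes listed for gdT_TypeI and not CD8_Naive included *Trdc*, *Tcrg-C2*, *Tcrg-C4* and *Trgv2*, with the integrin *Itga4* (80.1% in gdT_Naive, 78.2% in gdT_TypeI) and the chemokine receptor *Cxcr4* (82.2% and 91.5%). At least 1 alpha beta type listed 129 of the 149 genes, and at least 1 other gamma delta type listed 80. The share of all features that each of these groups of types lists together was not computed, so the counts are not weighed against each other. Both gdT_TypeIII types and gdT_TypeI shared 7 genes with gdT_Naive: *Trdc*, *Cd3d*, *Cd3e*, *Cd3g*, *Tcrg-C2*, *Trgv2* and *Arap2*.

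Some genes of gdT_Naive also varied among the ILC2s. Subcluster 7 listed 32 of the 149 genes and 1.88% of all features, subcluster 4 listed 31 and 5.59%, subcluster 5 listed 30 and 6.97%, and subcluster 1 listed 29 and 2.53%. Subcluster 8 listed 19 of the genes (1.76% of all features), subcluster 6 listed 11 (1.32%), subcluster 2 listed 10 (0.913%), subcluster 3 listed 8 (1.65%), subcluster 9 listed 4 (1.39%) and subcluster 0 listed 1 (2.09%). The features of both tables were not chosen alike, so nothing is read from these shares. With only genes of a higher share in both tables, subcluster 1 came first with 14 genes, subcluster 4 had 11, and subclusters 5 and 7 had 10 each. Subcluster 1 listed several naive genes. There *Klf2* had a value above 0 in 87.4% of cells and 43.5% of the other ILC2s, *Tcf7* in 51.8% and 18.9%, *Lef1* in 37.8% and 19.8%, and *S1pr1* in 50.5% and 9.90%. *Lef1* and *S1pr1* were listed for this subcluster alone, whereas subcluster 7 also listed *Klf2* (74.0% against 52.0%) and *Tcf7* (38.5% against 25.3%), subcluster 5 listed *Klf2* at a lower share (48.5% against 52.4%), and *Satb1* was listed for subcluster 5 alone (39.2% against 28.5%). Receptor genes were spread over several subclusters. Subcluster 5 listed *Cd3e* (32.0% against 4.70%) and *Trdc* (25.6% against 7.0%), although cells with *Cd3* had been removed before the ILC2s were clustered, by the study's own account. It also listed *Trbc1* at a lower share (45.0% against 81.0%). *Cd3g* was higher in subcluster 6 (46.1% against 32.4%) than in subcluster 5 (39.5% against 32.6%). *Trbc2* was listed for subclusters 1, 2 and 6 at 86.1% to 88.0%, and *Tcrg-C4* for subclusters 2, 6, 7 and 8 at 63.3% to 77.5%. Of the 30 genes listed for subcluster 5, 18 had a lower share there than in the other ILC2s. The 2 tables were made separately, so these shares are set beside those of the other ILC2s and not beside those of gdT_Naive.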

How the data were processed

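Reads of 4 single-cell libraries (10x Genomics, 3' ends) were mapped to mm10 with Cell Ranger, per the labels, cells with fewer than 500 genes were removed, and Seurat clustered the merged cells at a resolution of 5, and the ILC2s at 0.5. Both deposited tables hold, per gene and cluster, the fraction of cells with a value above 0 inside the cluster, the same fraction in all other cells, and the authors' log2 fold changes and p-values. The last of these columns hold the authors' own comparison. It set which genes were listed, all with a fold change above 0, but its sizes neither enter the results nor chose the genes named. The ratio of adjusted to raw p-values gave the number of features tested, 2000 for the cell types. Doublets were removed by flow cytometry, and no computational caller was described or could be run on tables without cells. Shares have 3 decimals and no depth or cell number, so no interval was computed.

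Cluster sizes came from a least squares fit to 1045 genes that 2 or more types listed, since the fraction over all cells is the same whichever type lists a gene. The residual root mean square was 0.000233, the sizes summed to 100.1%, and on data simulated for the same 1045 genes the largest error was 0.0256 points. The simulated shares were drawn at random and built on that same equality, so this error checks the solving step and not the solved sizes. Coordinates came from GENCODE M21. Genes named were every listed gene found in 20 gene lists, the 15 with the most positive and 10 with the most negative share differences, and any listed for this type alone. Genes added after their values were seen are *Pdcd1*, *Nop10*, *Itga4*, *Cxcr4*, *Arap2*, *Thy1* and those of the closing observations. The members and lists were chosen with earlier results of these data known. Some genes within the rule are not reported here, though counts include them. Groups came from the labels. Python 3.11.15 was used with numpy 2.4.6 and pandas 2.3.3.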

Additional observations from a re-analysis of the deposited data

How the results depend on the processing

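The solved size of gdT_Naive was 6.06% to 6.08% when sizes were forced to sum to 100%, when listings with shares under 0.05 apart were dropped, and when genes listed for 2 types alone were used. The 111 genes with a lower share became 107 when a difference of at least 0.01 was asked for, and 85 at 0.05. The overlaps depended on the choice, because fewer genes entered them. With only genes of a higher share in both types, gdT_Naive shared 24 genes with gdT_TypeI, 30 with CD8_Naive and 18 with CD4. With shares at least 0.05 apart in both types it shared 32, 56 and 39. CD8_Naive had the largest of the 3 overlaps in each case, whereas CD4 was above gdT_TypeI except where a higher share in both types was asked for. Of 24 counts per gene list and ILC2 subcluster, 19 moved by over 1.5 times when only genes of a higher share were counted, and 5 did not. No paired analysis was possible because no value was given per library. With 1 library per group, no library could be left out. Depth was unknown, so no share could be given a counting error.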

Other observations

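The following groups were assembled after the values were seen, and were not tested. Of 6 genes of ribosome biogenesis, *Npm1* had a higher share in gdT_Naive than in the other sorted cells (98.6% against 97.7%), and *Nop10*, *Nop56*, *Fbl*, *Gtpbp4* and *Snu13* had lower ones, the lowest for *Gtpbp4* at 51.2% against 65.3%. All 4 cytokine receptor genes had a lower share, as did 74.5% of the 149 genes: *Il21r* (56.0% against 65.5%), *Ifngr2* (47.6% against 58.4%), *Il6st* (46.5% against 67.3%) and *Il6ra* (36.7% against 65.6%). The signal transducer *Il6st* and *Il6ra* form the receptor for interleukin-6. Of 8 genes of chromosome structure and replication, *Smc4* and *Smc6* had higher shares, the latter at 95.2% against 86.9%, and the other 6 had lower ones, down to *Dbf4* at 42.7% against 57.0%.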
